A study of Homo sapiens with 4 samples.

Results

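The 9 genes described here encode cadherins, epithelial splicing factors and other epithelial proteins, namely CDH1, CDH2, CDH3, ESRP1, ESRP2, EPCAM, CLDN6, CLDN7 and GRHL2. They were taken by name, after the gene IDs of the files had been matched to current symbols, and all 9 were found among 27685 gene IDs. RNA was sequenced from NCC-IT-A3, a human embryonal carcinoma line; such germ cell tumour lines resemble pluripotent cells of the early embryo. Barasertib (100 nM, 4 days), which blocks the mitotic kinase Aurora B, was set against the solvent DMSO, with 2 libraries in each group. Both groups grew in RPMI medium with serum. Whether the libraries of a group stem from independent cultures is not stated, and the p-values therefore cover the spread between these samples alone, which may be technical.

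Cadherins are calcium-dependent adhesion proteins that join neighbouring cells and hold the actin skeleton through catenins. In the exchange known as the cadherin switch, epithelial cells lose E-cadherin (CDH1) and gain N-cadherin (CDH2), usually with fewer tight junction claudins and a change in splicing that the epithelial splicing regulatory proteins ESRP1 and ESRP2 otherwise maintain. Pluripotent cells are themselves epithelial in character and make E-cadherin, EPCAM and claudin 6. Embryonal carcinoma lines often make both E- and N-cadherin.

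The values are TPM, transcripts per 1000000, a level already scaled for transcript length and library size. About 4.22 to 4.59 Gb of aligned bases stood behind each library, as estimated from the deposited coverage and FPKM. The test covered 13938 gene IDs whose mean reached 1 TPM. By limma with a Benjamini-Hochberg threshold of 0.05, 22.0% of them were higher and 7.44% lower in barasertib cells, 29.5% in all. Over all tested genes the median log2 change was 0.11 in TPM, 0.00 after median-of-ratios scaling and -0.01 after quantile normalisation, so a gene's change is also given relative to that median. All 12 embryonal carcinoma markers were tested, and their summed level was 7427 and 7092 TPM with barasertib and 6443 and 6279 TPM with DMSO. The 8 yolk sac and endoderm markers summed to 2.02 and 1.25 TPM with barasertib, against 0.538 and 0.792 TPM with DMSO, with APOA2 and TTR at 0 in every library. The 7 fibroblast and stroma markers summed to 13.6 and 13.8 TPM with barasertib and 8.70 and 9.90 TPM with DMSO, mostly PDGFRA, while FAP was at 0 in every library and DCN reached 0.0465 TPM in 1 barasertib library. The 7 neural markers summed to 119 and 109.5 TPM with barasertib, against 89.6 and 88.9 TPM with DMSO, with NEUROD1 at 0 in every library. The part of other cell types in the results was not tested beyond these values.

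CDH1 and ESRP1 fell, and CDH2 and CLDN6 rose. These 4 passed the test among the 8 of the 9 genes that were tested (2 higher and 2 lower), beside 29.5% of all tested genes called. GRHL2 lay under the filter at a mean of 0.723 TPM, and is described separately. CDH3, ESRP2, EPCAM and CLDN7 did not pass. At a change of at least 2-fold the count was 2 lower and 0 higher, beside 0.624% of all tested genes lower, 2.09% higher and 2.72% in either direction. The 4 calls held under all 3 scalings and with any 1 of the 4 libraries left out. Median-of-ratios scaling called 2 of the 8 higher and 3 lower, beside 24.3% of all tested genes, and quantile normalisation 2 higher and 4 lower, beside 23.2% of all tested genes, or 11.4% lower. In 2 of the 8 genes both barasertib values lay above both DMSO values, and in 5 they lay below, beside 49.1% and 19.7% of all tested genes.

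**Figure D1:**
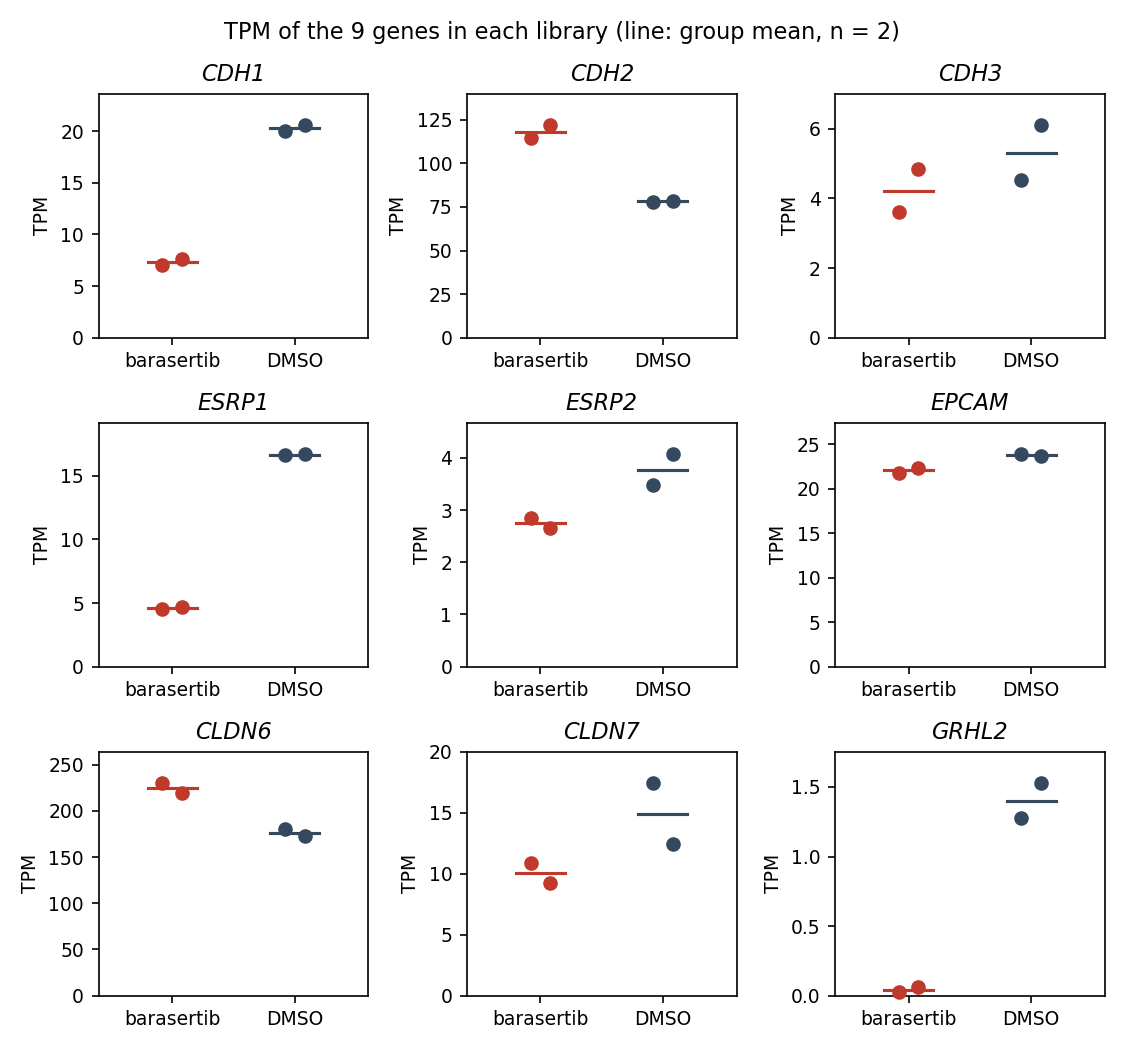
TPM of each of the 9 genes (vertical axes, each from 0) in the 2 barasertib and 2 DMSO libraries (points), with the group mean as a line. CDH1, ESRP1 and GRHL2 lie far lower with barasertib, CDH2 and CLDN6 lie higher, and the CDH3 points of both groups overlap.

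CDH1, the E-cadherin gene, had 7.06 and 7.59 TPM with barasertib and 20.0 and 20.6 TPM with DMSO. The groups were well apart, and the barasertib mean of 7.33 ± 0.372 TPM was 2.77-fold below the DMSO mean of 20.3 ± 0.411 TPM (SD, n = 2 each). On the log2(TPM + 1) scale, which understates changes of low genes, CDH1 fell by 1.35 (SE 0.08, limma adjusted p = 0.000465), and relative to the median of all tested genes its log2 change was -1.46. Of the 13938 tested genes, 39 had a lower log2 change. CDH1 (gene ID 999) spans chromosome 16 from 68771193 to 68869445 on the forward strand in the hg19 coordinates of the files. In bulk RNA, fewer cells with a message and less message per cell cannot be told apart.

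CDH2, the N-cadherin gene, had 114 and 122 TPM with barasertib and 78.0 and 78.6 TPM with DMSO. Both barasertib libraries lay above both DMSO libraries, at means of 118 ± 5.24 TPM with barasertib and 78.3 ± 0.411 TPM with DMSO. The log2 change was 0.59 (SE 0.05, limma adjusted p = 0.00143), or 0.48 relative to all tested genes. CDH2 (gene ID 1000) lies on the reverse strand of chromosome 18, from 25530927 to 25757410. N-cadherin was thus already the more abundant message in DMSO cells, and the rise was 1.51-fold.

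CDH3 encodes P-cadherin, a classical cadherin of placenta and basal epithelia, and neighbours CDH1 on chromosome 16 (68678739 to 68732970). It had 3.60 and 4.85 TPM with barasertib and 4.53 and 6.10 TPM with DMSO. The groups overlapped, and CDH3 did not pass the test (log2 change -0.27, 95% confidence interval -0.71 to 0.17, limma adjusted p = 0.297).

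The balance of the cadherins can be read within a library, where library scaling cancels out. CDH2 was 16.2 and 16.0 times as abundant as CDH1 in the barasertib libraries, against 3.90 and 3.82 times in the DMSO libraries. The log2 ratio of CDH1 to CDH2 averaged -4.01 ± 0.00923 with barasertib and -1.95 ± 0.0217 with DMSO, a difference of -2.06. The exact two-sided permutation test gave p = 0.33, the smallest that 2 against 2 libraries allow. Of the summed level of the 3 cadherins, CDH1 made up 5.65% and 5.65% with barasertib and 19.5% and 19.5% with DMSO. CDH3 made up 2.88% and 3.61% with barasertib and 4.42% and 5.79% with DMSO. The sum itself was higher with barasertib, at 130 ± 6.50 TPM, than with DMSO, at 104 ± 1.93 TPM.

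**Figure D2:**
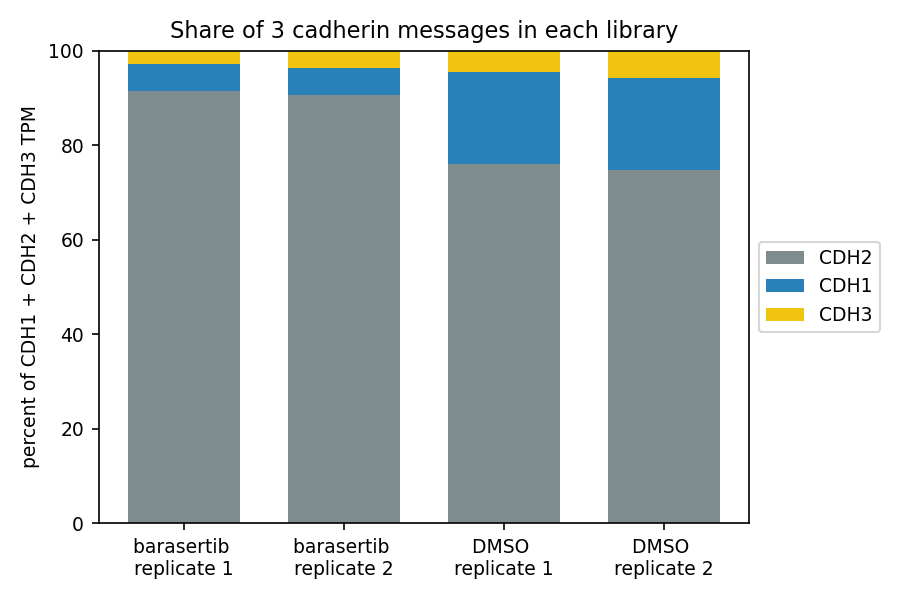
Stacked bars of the share of CDH2, CDH1 and CDH3 in their summed TPM (vertical axis, percent), 1 bar per library. CDH1 takes 5.65% of the sum in each barasertib library and 19.5% in each DMSO library.

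Of the epithelial splicing factors, ESRP1 fell and ESRP2 did not pass the test. ESRP1 is an RNA-binding protein that keeps exons in their epithelial form, among them those of FGFR2, CD44, ENAH and CTNND1. It had 4.54 and 4.71 TPM with barasertib and 16.6 and 16.7 TPM with DMSO. The replicates were tight and the groups far apart, at means of 4.62 ± 0.122 TPM with barasertib and 16.6 ± 0.0510 TPM with DMSO, a 3.60-fold lower level with barasertib. On the log2(TPM + 1) scale ESRP1 fell by 1.65 (SE 0.09, limma adjusted p = 0.00034), and relative to all tested genes its log2 change was -1.76. A lower log2 change was found for 19 of the 13938 tested genes. ESRP1 (gene ID 54845) spans chromosome 8 from 95653364 to 95719694.

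ESRP2, its paralog with overlapping targets, had 2.85 and 2.65 TPM with barasertib and 3.48 and 4.07 TPM with DMSO. The groups did not overlap, but ESRP2 did not pass the test (log2 change -0.34, 95% confidence interval -0.68 to -0.01, limma adjusted p = 0.111). It passed after quantile normalisation (log2 change -0.54, limma adjusted p = 0.0402), in a range of adjusted p from 0.0402 to 0.384 over its alternatives. Its span (chromosome 16, 68262450 to 68270136, reverse strand) overlaps NFATC3 on the other strand by 713 bases. NFATC3 stood at 15.0 and 15.4 TPM with barasertib and 19.6 and 19.4 TPM with DMSO, and the sources used here do not say whether the authors' quantification used strand. Together the ESRP messages made up 7.39 and 7.36 TPM with barasertib and 20.1 and 20.7 TPM with DMSO. The ESRP1 share of that sum was 62.7 ± 1.85% with barasertib and 81.5 ± 1.63% with DMSO.

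GRHL2 (grainyhead-like 2) is a transcription factor of epithelial cells that activates CDH1, ESRP1 and claudin genes in epithelial tissues. It had 0.0288 and 0.0589 TPM with barasertib and 1.28 and 1.53 TPM with DMSO. The barasertib values rest on a mean read depth over the gene of 0.0573 and 0.115, against 2.36 and 2.93 with DMSO, so very few reads lay on GRHL2 in the barasertib libraries. Because its mean was under 1 TPM, GRHL2 entered only the fit without a filter on low values. In that fit it fell by 1.20 on the log2(TPM + 1) scale (SE 0.10, limma adjusted p = 0.0103, over 20052 gene IDs), where 3.67% of all gene IDs were called lower. GRHL2 (gene ID 79977) lies on chromosome 8 from 102504667 to 102681952.

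EPCAM, an adhesion glycoprotein of epithelia and pluripotent cells, had 21.8 and 22.4 TPM with barasertib and 23.9 and 23.7 TPM with DMSO. The groups did not overlap, but the means were close, at 22.1 ± 0.401 TPM with barasertib and 23.8 ± 0.136 TPM with DMSO. EPCAM did not pass the test (log2 change -0.10, 95% confidence interval -0.27 to 0.06, limma adjusted p = 0.290), and the interval excludes a fall as large as that of CDH1 or ESRP1. It did not pass under any alternative tried, with adjusted p from 0.0620 to 0.546. EPCAM (gene ID 4072) spans chromosome 2 from 47596287 to 47614167.

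The claudins are the strand-forming proteins of tight junctions. CLDN6, a claudin of embryonic epithelia and of germ cell tumours, was the most abundant of the 9 messages in both groups. It had 229.8 and 219 TPM with barasertib and 179.9 and 173 TPM with DMSO. Both barasertib libraries lay above both DMSO libraries, at means of 224 ± 7.58 TPM with barasertib and 177 ± 4.79 TPM with DMSO. The log2 change was 0.34 (SE 0.05, limma adjusted p = 0.00503), or 0.23 relative to all tested genes, and 0.23 after median-of-ratios scaling (limma adjusted p = 0.0235). CLDN6 (gene ID 9074) lies on chromosome 16 from 3064713 to 3068188, on the reverse strand.

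CLDN7, a claudin of many adult epithelia and a partner of EPCAM, had 10.8 and 9.24 TPM with barasertib and 17.4 and 12.4 TPM with DMSO. The groups did not overlap, with means of 10.0 ± 1.14 TPM with barasertib and 14.9 ± 3.54 TPM with DMSO, where the replicates differed widely. CLDN7 did not pass the test in TPM (log2 change -0.51, SE 0.16, limma adjusted p = 0.0625). It passed after median-of-ratios scaling (limma adjusted p = 0.0448), quantile normalisation (0.0426) and without DMSO replicate 2 (0.00958), in a range of adjusted p from 0.00958 to 0.245 over its alternatives. CLDN7 (gene ID 1366, chromosome 17, 7163222 to 7166512, reverse strand) overlaps ELP5 on the other strand by 38 bases, and ELP5 was at 64.8 to 68.5 TPM in the 4 libraries. CLDN6 was 21.2 and 23.7 times as abundant as CLDN7 with barasertib, against 10.3 and 14.0 times with DMSO.

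Repressors of the SNAI and ZEB families bind the E-box CACCTG, on either strand, in epithelial promoters such as that of CDH1. Promoter windows of 300 bases, from RefSeq (GRCh38.p14), were at hand for 3 of the 9 genes, CDH2, CLDN6 and CLDN7. Each runs from 250 bases before to 50 bases after an annotated start. The motif (CACCTG or its reverse complement CAGGTG) is in capitals. With barasertib CDH2 and CLDN6 rose, and CLDN7 did not pass the test in TPM. Whether the motif bears on these values was not tested. The CDH2 window is chr18:28177081-28177380, the CLDN6 window chr16:3018134-3018433 and the CLDN7 window chr17:7262429-7262728, all on the reverse strand and written 5′ to 3′. CDH2 and CLDN7 each have 1 further annotated start, whose window is not printed, and neither of those windows holds the motif. The CLDN7 matches thus all lie in 1 of its 2 windows.
CDH2: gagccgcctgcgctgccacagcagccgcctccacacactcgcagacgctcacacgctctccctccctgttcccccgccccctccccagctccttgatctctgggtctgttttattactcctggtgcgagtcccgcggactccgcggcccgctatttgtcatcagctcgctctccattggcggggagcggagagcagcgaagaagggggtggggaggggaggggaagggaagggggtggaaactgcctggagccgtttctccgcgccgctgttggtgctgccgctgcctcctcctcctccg
CLDN6: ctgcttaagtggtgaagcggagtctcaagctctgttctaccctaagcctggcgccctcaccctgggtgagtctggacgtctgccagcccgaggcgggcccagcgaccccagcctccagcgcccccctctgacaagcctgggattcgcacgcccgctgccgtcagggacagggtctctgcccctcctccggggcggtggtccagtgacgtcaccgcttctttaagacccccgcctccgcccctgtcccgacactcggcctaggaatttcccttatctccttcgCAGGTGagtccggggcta
CLDN7: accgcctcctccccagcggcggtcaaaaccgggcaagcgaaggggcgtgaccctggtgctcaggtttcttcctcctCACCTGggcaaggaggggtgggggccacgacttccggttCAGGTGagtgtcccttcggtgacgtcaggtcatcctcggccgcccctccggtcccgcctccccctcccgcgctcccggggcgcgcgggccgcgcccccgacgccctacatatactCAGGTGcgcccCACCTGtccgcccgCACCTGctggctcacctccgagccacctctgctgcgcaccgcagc
The CDH2 window holds 0 matches, the CLDN6 window 1 and the CLDN7 window 5. The CLDN6 match begins at base 283 of its window, and so lies after the annotated start and not upstream of it. The last CLDN7 match, at base 256, also lies after the start. Of 35116 promoter windows in the table, 20.6% hold at least 1 match and 0.0940% hold 5 or more. These shares are not matched for the content of G and C bases, which was 71.7% in the CLDN7 window shown. A match describes the letters of the window and not binding of a factor.

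**Figure D3:**
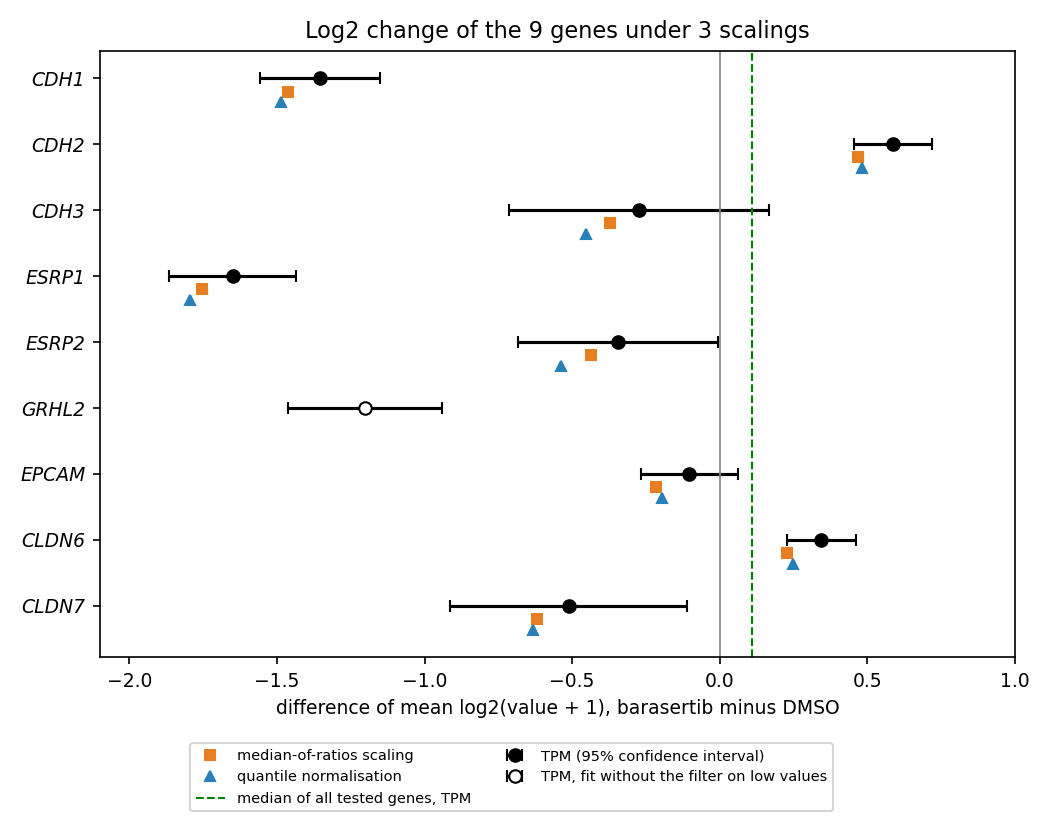
Difference of mean log2(value + 1) between barasertib and DMSO (horizontal axis) for the 9 genes, as black points with 95% confidence intervals for TPM, squares for median-of-ratios scaling and triangles for quantile normalisation. The open point is GRHL2 from the fit without a filter on low values. CDH1 and ESRP1 lie below -1 and CDH2 and CLDN6 above 0 under every scaling shown.

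In order of level, the 9 messages with barasertib ran CLDN6, CDH2, EPCAM, CLDN7, CDH1, ESRP1, CDH3, ESRP2 and GRHL2. Only the ranges of ESRP1 and CDH3 overlapped among neighbours in that order. With DMSO the order was CLDN6, CDH2, EPCAM, CDH1, ESRP1, CLDN7, CDH3, ESRP2 and GRHL2, where only ESRP1 and CLDN7 overlapped as neighbours. CDH1 and ESRP1 thus stood below CLDN7 with barasertib and, by their means, above it with DMSO.

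The genes whose pattern over the 4 libraries was most like that of CDH1 were ASS1 (argininosuccinate synthase), CRELD1 and P4HA2 (a collagen prolyl hydroxylase). Likeness was the Euclidean distance between centred log2(TPM + 1) values over 4 libraries, among 9050 genes averaging 10 TPM or more, and the distances were 0.0434, 0.0586 and 0.0735. P4HA2, for example, had 67.6 and 68.5 TPM with barasertib and 181 and 179 TPM with DMSO. The nearest to CDH2 were NMT2 (an N-myristoyltransferase), MCM10 (a replication factor) and TERF1 (a telomere protein), at 0.0300, 0.0321 and 0.0412. With 2 groups of 2 libraries such likeness says little beyond a similar fold.

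Genes of related function are given as counts, to be read beside the shares of all tested genes that were called. These were 22.0% higher and 7.44% lower in TPM, or 12.0% and 12.3% after median-of-ratios scaling. With any 1 library omitted, fewer of all tested genes were called as well, so counts under an omission cannot be read beside these shares. No such share was computed for calls under all 3 scalings. Of 19 other classical and related cadherins, 10 were tested, of which 5 rose and 1 fell, and their median log2 change lay 0.27 above that of all tested genes. CDH11, a cadherin of mesenchymal cells, had 6.25 and 6.46 TPM with barasertib and 3.06 and 3.25 TPM with DMSO (log2 change 0.82, limma adjusted p = 0.00481). CDH10 and CDH24 rose as well, by log2 changes of 0.68 and 0.66, but lost their calls with barasertib 1, barasertib 2 or DMSO 1 omitted (limma adjusted p up to 0.201 and 0.115). CDH15, the muscle cadherin, had 0.561 and 0.450 TPM with barasertib and 2.31 and 1.67 TPM with DMSO, a log2 change of -0.98. It is the 1 gene counted as fallen, passed the filter on low values only through its DMSO level, and so gives that count no weight. Its call was lost with barasertib 1 or 2 omitted (limma adjusted p up to 0.0768), and with DMSO 1 omitted it was under the filter and not tested. Under all 3 scalings 2 rose and 1 fell. With barasertib 1, barasertib 2 or DMSO 1 omitted, only 1, 1 and 2 rose and 0 fell.

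The cytoplasmic partners of cadherins moved by small amounts. CTNNB1 (beta-catenin), named here after its values were seen, had 404 and 416 TPM with barasertib and 391 and 414 TPM with DMSO (log2 change 0.03, limma adjusted p = 0.694). Of 13 tested genes among the catenins, nectins and their linkers, 4 rose and 1 fell, at a median 0.05 above all tested genes. CTNND1 (p120-catenin, which stabilises cadherins at the membrane), NECTIN1 and NECTIN3 rose by log2 changes of 0.28, 0.26 and 0.30, but 0 of the list rose under all 3 scalings. The CTNND1 call was lost with barasertib 2 omitted (limma adjusted p = 0.0508), and those of NECTIN1 and NECTIN3 with barasertib 1, barasertib 2 or DMSO 1 omitted (up to 0.0905 and 0.177). AFDN (afadin) fell by 0.21, under all 3 scalings, a call that each omission of 1 library ended (adjusted p from limma, 0.0628 to 0.122). With barasertib 1, barasertib 2 or DMSO 1 omitted, 1, 0 and 1 rose.

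Among the other claudins, CLDN11, a claudin of myelin and Sertoli cells, had 5.89 and 7.17 TPM with barasertib and 2.05 and 2.20 TPM with DMSO, a log2 change of 1.26 (limma adjusted p = 0.00231). CLDN10 rose by 0.45, a call that each omission of 1 library ended (adjusted p from limma, 0.0747 to 0.139). These were the 2 that rose of 8 tested, and 0 fell. After median-of-ratios scaling or quantile normalisation the count turned to 1 higher and 2 lower, since CLDN3 (limma adjusted p of 0.0222 and 0.0244) and CLDN19 (0.0396 and 0.0356), named after their values were seen, then passed as lower. With barasertib 1, barasertib 2 or DMSO 2 omitted, 1 rose, and 0 fell with any 1 library omitted. The 19 other claudins listed summed to 90.4 and 96.4 TPM with barasertib and 87.4 and 90.3 TPM with DMSO. Of 19 tested tight junction and polarity genes, 4 rose and 1 fell, close to the shares over all tested genes of 22.0% and 7.44%. CXADR, a junctional receptor of the immunoglobulin family, fell to 40.4 and 49.1 TPM with barasertib, against 70.5 and 73.9 TPM with DMSO (log2 change -0.68, limma adjusted p = 0.00522). Under all 3 scalings 1 gene of the list rose and 1 fell. CGN (cingulin) and PRKCI rose by log2 changes of 0.36 and 0.35, but neither passed under all 3 scalings. Their calls were lost with 3 of the 4 libraries omitted in turn, all but barasertib 2 for CGN (limma adjusted p up to 0.0990) and all but DMSO 1 for PRKCI (up to 0.0771). With barasertib 1, barasertib 2 or DMSO 1 omitted, 1, 2 and 2 tight junction and polarity genes rose. F11R, named after its values were seen, had 102 and 105 TPM with barasertib but 34.0 and 87.3 TPM with DMSO and did not pass (limma adjusted p = 0.126).

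DSP (desmoplakin), which anchors keratin filaments, had 51.0 and 54.5 TPM with barasertib and 71.8 and 72.1 TPM with DMSO (log2 change -0.44, limma adjusted p = 0.00424). DSC2, a desmosomal cadherin, fell by 0.36. Of 7 tested desmosome genes these 2 fell, under all 3 scalings, and 0 rose. The DSC2 call was lost once barasertib 1, barasertib 2 or DMSO 2 was omitted (limma adjusted p up to 0.112). Among 10 tested EPCAM relatives and proteases, 4 rose and 2 fell. PSEN2, a subunit of gamma-secretase, which cleaves EPCAM, rose by a log2 change of 0.55 (limma adjusted p = 0.0035), and the tetraspanin CD9 rose to 469 and 480.2 TPM with barasertib, against 384 and 366 TPM with DMSO. SPINT1 and FHL2 rose by 0.33 and 0.43. NCSTN, another gamma-secretase subunit, and ADAM17, both named after their values were seen, were the 2 that fell. Their limma adjusted p values were 0.0139 and 0.0327. Both calls were lost with barasertib 1 or 2 omitted, that of NCSTN also with DMSO 1 omitted and that of ADAM17 with DMSO 2 omitted. The FHL2 call ended whichever library was omitted (adjusted p from limma, 0.0543 to 0.141) and after both other scalings, and the SPINT1 call ended with barasertib 1 or DMSO 2 omitted (up to 0.0614) and after median-of-ratios scaling. Under all 3 scalings 2 rose and 2 fell, without DMSO replicate 2 only 2 rose, and the number that fell was 0 or 1 with any 1 library left out.

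Other epithelial transcription factors changed in both directions. GRHL3, the paralog of GRHL2, had 15.4 and 14.2 TPM with barasertib and 27.1 and 33.9 TPM with DMSO (log2 change -0.99, limma adjusted p = 0.00287). GRHL1 had 6.38 and 6.30 TPM with barasertib and 3.63 and 4.65 TPM with DMSO (log2 change 0.52, limma adjusted p = 0.0337), and did not pass after median-of-ratios scaling or quantile normalisation. KLF5 fell by 0.28, a call that each omission of 1 library ended (adjusted p from limma, 0.0883 to 0.150), and TFCP2L1 rose by 0.57. Neither TFCP2L1 nor GRHL1 kept its call with barasertib 1 or 2 omitted (limma adjusted p up to 0.0597 and 0.127), and GRHL1 also lost it with DMSO 1 omitted. Of 6 tested genes, 2 rose and 3 fell, or 1 and 3 under all 3 scalings. With barasertib 1, barasertib 2 or DMSO 1 omitted, 0, 1 and 1 rose and 1 fell.

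Several transcription factors of the epithelial-mesenchymal transition (EMT) repress CDH1. Of 9 such factors tested, 4 rose, beside 22.0% of all tested genes called higher in the fit of all 4 libraries. Fewer of the 9 rose with any 1 library omitted, and fewer of all tested genes did so too. TWIST1 had 5.93 and 6.97 TPM with barasertib and 2.71 and 3.51 TPM with DMSO (log2 change 0.86, limma adjusted p = 0.00955), a call lost without barasertib replicate 2 (0.0643). SNAI1 (Snail) had 9.97 and 9.90 TPM with barasertib and 7.18 and 7.36 TPM with DMSO. SNAI2 (Slug) had 6.62 and 6.35 TPM with barasertib and 4.49 and 4.31 TPM with DMSO. Their log2 changes were 0.40 and 0.47 (limma adjusted p of 0.0212 and 0.0225), but both calls ended whichever library was omitted, and neither held under all 3 scalings. TCF3 rose by 0.27, a call lost with any library but barasertib 2 omitted (limma adjusted p up to 0.117) and after both other scalings. ZEB1 and ZEB2, named after their values were seen, had log2 changes of 0.18 and -0.13 that did not pass (limma adjusted p of 0.260 and 0.338). Of the EMT factors 1 rose under all 3 scalings, and 0 fell in TPM but 1 after either other scaling.

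Most tested mesenchymal markers rose. Of 14 tested, 10 rose and 1 fell, or 6 and 0 under all 3 scalings, and their median lay 0.47 above that of all tested genes. The list holds 19 genes. ACTA2, MMP9, COL1A1, COL1A2 and AXL lay under the filter, at no more than 1.41 TPM in any library, and were not tested. TAGLN, COL3A1 and COL5A1, named after their values were seen, did not pass (limma adjusted p of 0.426, 0.484 and 0.668). POSTN (periostin), ITGA5 (a fibronectin receptor subunit) and TNC (tenascin C) rose by log2 changes of 1.43, 1.25 and 0.86. VIM, the abundant intermediate filament gene, named after its values were seen, fell to 2942 and 2842 TPM with barasertib, against 3721 and 3465 TPM with DMSO (log2 change -0.31, limma adjusted p = 0.00446), but not after quantile normalisation (log2 change -0.09, limma adjusted p = 0.0934). Because VIM makes up most of the list, its summed level was lower with barasertib (3248 and 3149 TPM) than with DMSO (3937 and 3673 TPM). Without barasertib replicate 1 or barasertib replicate 2, 6 rose. FN1, a classic EMT marker also named after its values were seen, had 92.4 and 93.3 TPM with barasertib and 77.3 and 70.5 TPM with DMSO (log2 change 0.33, limma adjusted p = 0.0129), a call lost once barasertib replicate 1 or 2 was omitted (up to 0.0649).

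Other splicing regulators and the genes whose exons ESRP proteins regulate were read only at the level of the gene, since the values used here are per gene. Of 15 tested splicing regulators, 7 rose and 1 fell, or 2 and 1 under all 3 scalings. SRSF1, an SR protein, rose to 143 and 141 TPM with barasertib, against 66.7 and 61.3 TPM with DMSO (log2 change 1.14, limma adjusted p = 0.00034). NOVA1, CELF2 and PTBP2 rose by log2 changes of 0.60, 0.55 and 0.47. After median-of-ratios scaling or quantile normalisation, NOVA1 and CELF2 did not pass. QKI, named after its values were seen, was the 1 that fell (limma adjusted p = 0.0473), under all 3 scalings. That call was lost with barasertib 1, barasertib 2 or DMSO 2 omitted. The calls of NOVA1 and CELF2 were lost with any library but DMSO 1 omitted (limma adjusted p up to 0.128 and 0.118), and that of PTBP2 with barasertib 2 omitted (0.0553). Without each library in turn (barasertib replicates 1 and 2, then DMSO replicates 1 and 2), 2, 2, 5 and 3 of the splicing regulators rose and 0, 0, 3 and 0 fell. Of 15 tested genes with ESRP-regulated exons, 5 rose and 1 fell, or 2 and 1 under all 3 scalings. ENAH, an actin regulator, had 33.2 and 37.2 TPM with barasertib and 17.3 and 17.4 TPM with DMSO (log2 change 0.98, limma adjusted p = 0.001). CD44, the hyaluronan receptor, had 38.3 and 39.5 TPM with barasertib and 25.9 and 23.6 TPM with DMSO (log2 change 0.63, limma adjusted p = 0.00265). FGFR2, a fibroblast growth factor receptor, had 55.1 and 52.9 TPM with barasertib and 70.4 and 69.2 TPM with DMSO (log2 change -0.36, limma adjusted p = 0.00642). MAGI1 rose by 0.36, but its call ended whichever library was omitted (adjusted p from limma, 0.0591 to 0.0970) and after both other scalings. Of the list, 3, 2 and 3 rose with barasertib 1, barasertib 2 or DMSO 1 omitted.

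**Figure D4:**
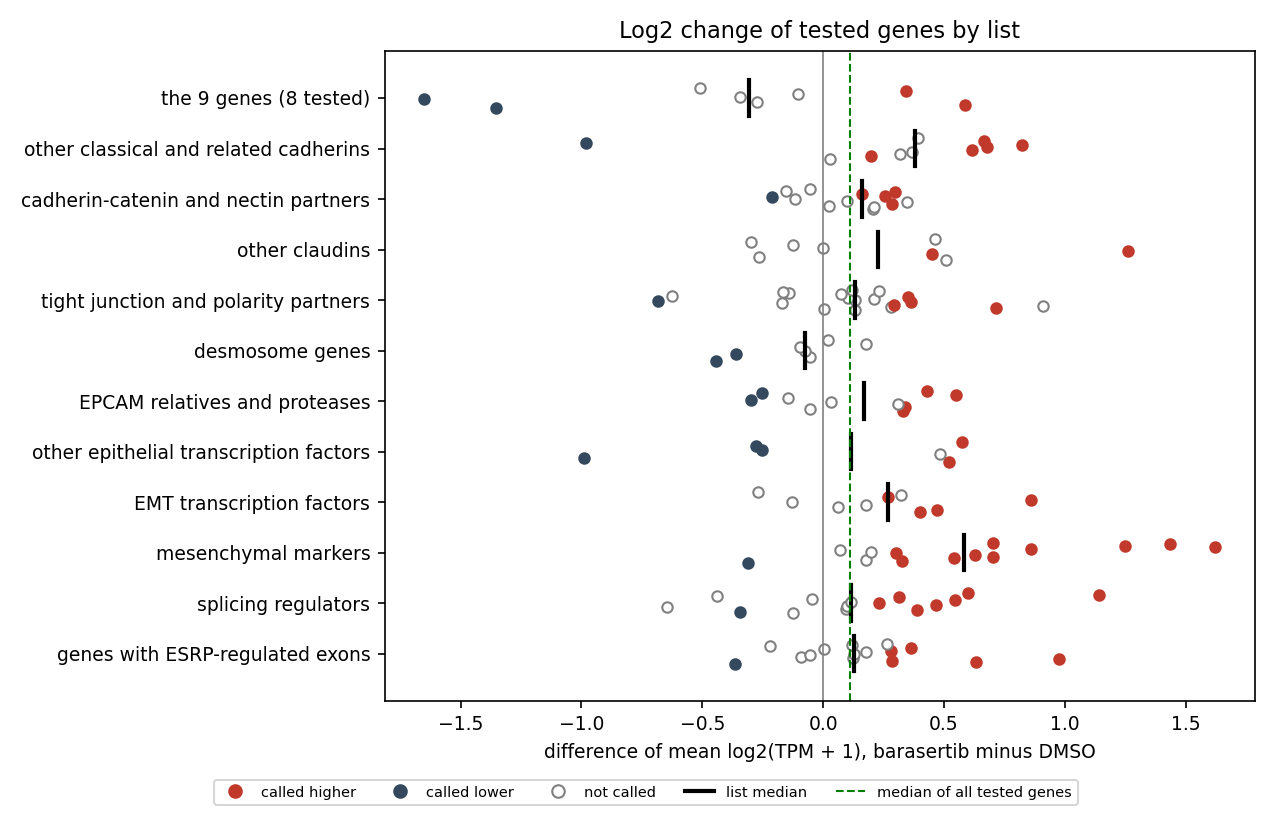
Difference of mean log2(TPM + 1) between barasertib and DMSO (horizontal axis) for each tested gene of 12 lists, with called genes filled, the list median as a bar and the median of all tested genes as a dashed line. Mesenchymal markers have the median farthest above the dashed line (0.47), and the 9 genes, 8 of them tested, have it farthest below (-0.42).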

How the data were processed

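RNA of 4 NCC-IT-A3 libraries was analysed, 2 per group. Per the labels' protocols, a TruSeq mRNA kit and its strand-marking guide were used. HISAT2, StringTie and hg19 are named in the submitters' processing notes, without versions or options. Each deposited table gives coverage (mean read depth over a gene, a signal), FPKM and TPM per gene row, per the file headers, and no counts. Rows were summed per gene ID. RefSeq (GRCh38.p14, used for names) matched 27559 of 27685 IDs. Deposited TPM sum to 1000000 in each library.

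The 13938 genes averaging 1 TPM or more were tested two-sided in limma 3.58.1 (R 4.3.3) on log2(TPM + 1), with a group term, a mean-variance trend, Benjamini-Hochberg adjustment over all of them and a threshold of 0.05. The fit was tested on simulated data. Aligned bases are the largest ratio of deposited coverage to FPKM among genes with an FPKM of at least 1. The files hold no read numbers, so counting intervals are not printed. SDs are over n = 2 libraries.

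The 9 genes and all lists were chosen with earlier results of these data known. Named genes are the 9, up to 4 called genes per list with the largest change (or the most abundant one where none was called), and the 3 nearest in pattern to CDH1 and CDH2. Some genes that this rule names are not reported here. Others are said to be named after their values were seen. Alternatives were no filter, 5 TPM, pseudocounts of 0.1 and 5, FPKM, median-of-ratios scaling, quantile normalisation, no trend, robust moderation, a replicate block, each library left out, and a 2-fold threshold. Python 3.11.15, scipy 1.17.1 and matplotlib 3.10.9 were used.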

Additional observations from a re-analysis of the deposited data

How the results depend on the processing

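The calls of CDH1, CDH2, ESRP1 and CLDN6 held in every alternative fit run for them, but CDH2 and CLDN6 did not reach a 2-fold change. Log2 changes of the 4 genes, in that order, were -1.49 to -1.04, 0.47 to 0.63, -1.83 to -1.17 and 0.23 to 0.38. Of the 9 genes, 0 were higher and 2 lower when a 2-fold change was also asked for, and 4 were lower after quantile normalisation, since ESRP2 and CLDN7 then passed. With 1 library left out, 2 were higher and 2 to 3 lower. Same-numbered libraries did not pair (correlation of their deviations 0.0229), and the replicate block gave 2 higher and 3 lower of the 9, as CLDN7 passed (limma adjusted p = 0.0162), with 3218 higher and 1080 lower over all genes. Over all genes, 3071 were higher and 1037 lower. These counts were 1668 and 1721 after median-of-ratios scaling, 1649 and 1590 after quantile normalisation, and 292 and 87 with a 2-fold change. Lower genes numbered 674 without the mean-variance trend. With 1 library left out, 1365 to 2181 were higher and 601 to 699 lower, the fewest without barasertib replicate 1. The difference in the CDH1 to CDH2 log2 ratio, -2.06, was -1.94 with 1 TPM added to each value and -2.08 to -2.05 with 1 library left out, and in the CDH1 share -13.9 to -13.8 percentage points. Fits with 1 library in a group assume that it varies like the other group. The cause of these changes was not tested. Over the other lists, 330 counts under the alternatives stayed within 1.5 times, 102 were smaller and 16 larger. The 330 include counts of 0 that stayed at 0, as in the yolk sac and endoderm list, where 0 genes were tested. They are therefore no measure of how stable the calls were. Depth limits the values of GRHL2, ESRP2 and CDH3, which had a mean read depth under 12 in every library. The depth of ESRP1 was also low with barasertib, at 8.65 and 9.03, against 30.4 and 32.1 with DMSO. For CDH1 it was 13.9 and 14.6 with barasertib and 36.4 and 39.4 with DMSO.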

Other observations

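CDH1, CDH3 and ESRP2 lie close together on chromosome 16, within the 607 kb from 68262450 to 68869445 (hg19), and CDH3 ends 38.2 kb before CDH1 starts. This stretch was looked at after the values were seen. It holds 11 gene IDs, of which 9 were tested. CDH1 and SMPD3, a sphingomyelinase gene, were lower with barasertib and SLC7A6OS was higher (limma adjusted p under 0.05), beside 7.44% and 22.0% of all tested genes.

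Neural and trophoblast genes were read because neural cells also make CDH2. TUBB3 and NCAM1 were higher with barasertib (log2 changes of 0.34 and 0.39), 2 of 4 tested neural markers, but 0 under all 3 scalings, the TUBB3 call was lost with barasertib 1 omitted (limma adjusted p = 0.0559), and the NCAM1 call ended whichever library was omitted (adjusted p from limma, 0.0554 to 0.0944). HAND1, the only trophoblast marker tested, had 41.2 and 35.6 TPM with barasertib and 34.7 and 41.6 TPM with DMSO (limma adjusted p = 0.955), and CGB3, CGB5 and ELF5 were at 0 in every library. Among embryonal carcinoma markers, 7 of 12 rose and 1 fell. This count and that of the neural markers stand beside 22.0% of all tested genes called higher and 7.44% lower. Under all 3 scalings 3 embryonal carcinoma markers rose and 1 fell, and no share over all genes was computed for that. DNMT3B, NANOG and TERF1 had log2 changes of 0.89, 0.62 and 0.62. SOX2 and POU5F1 are named after their values were seen. SOX2 was the 1 that fell (limma adjusted p = 0.0143), under all 3 scalings. POU5F1 rose (limma adjusted p = 0.0296), but did not pass after median-of-ratios scaling. The SOX2 call was lost with barasertib 1 or DMSO 1 omitted, and the POU5F1 call with any library but DMSO 1 omitted. DPPA4 had 277 and 293 TPM with barasertib but 90.4 and 188 TPM with DMSO, and its call was lost without barasertib replicate 1 or 2 (limma adjusted p up to 0.166). PODXL, named after its values were seen, had 506 and 167 TPM in the barasertib libraries and 320.1 and 326 TPM in the DMSO libraries. Without barasertib replicate 1, fewer of the embryonal carcinoma markers rose, as did fewer of all tested genes. GATA4, of the yolk sac and endoderm list, had 0.605 and 0.701 TPM with barasertib and 0.126 and 0.329 TPM with DMSO.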
